A study of Mus musculus with 6 samples.

Results

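Open chromatin was examined at 10 genes that make, destroy or sense retinoic acid: Rdh10, Dhrs3, Aldh1a2, Aldh1a3, Cyp26a1, Cyp26b1, Rara, Rarb, Rarg and Rxra. Every peak whose gene column in the authors' deposited table names one of these genes was taken, which gave 89 of 70494 peaks and 10 of 26796 genes. Peaks were mapped by ATAC-seq, in which a transposase cuts accessible DNA, in mouse definitive endoderm derived from epiblast stem cells. The line, 7H OTX2-dTAG-EGFP on a BL6/129 hybrid background, carries the homeodomain transcription factor OTX2 fused to a tag that the small molecule dTAG13 marks for degradation. Cells received 40 ng/ml Activin A with 3 uM CHIR for 16 h and then 100 ng/ml Activin A with 100 nM LDN for 24 h. From the primitive streak stage, 3 libraries had the DMSO vehicle and 3 had dTAG13 for 24 h, each from 50000 sorted live cells. Both groups carry the tagged allele in this 1 line, and an untagged line given dTAG13 was not analysed here. Per the design text the 3 libraries in each group are technical replicates. The authors' standard errors (SE) thus measure the spread between libraries and may not hold that between cultures.

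Retinol is oxidised to retinal by RDH10, and DHRS3 turns retinal back into retinol. The ALDH1A enzymes make retinoic acid from retinal, and the CYP26 enzymes break it down. Retinoic acid binds receptors of the RAR family (RARA, RARB, RARG), which pair with RXR partners such as RXRA on direct repeats of a short half-site. In the embryo, graded retinoic acid patterns the hindbrain and the gut tube along the head to tail axis, and Cyp26a1, Rarb and Dhrs3 are among the genes known to respond to it. OTX2 acts in the anterior of the embryo.

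With dTAG13, accessibility changed at 8 of the 89 peaks, spread over 4 of the genes. A peak was called where the authors' deposited table gives an adjusted p under 0.05. Accessibility fell at 6 of these peaks, 3 assigned to Rarb, 2 to Cyp26a1 and 1 to Rxra, and rose at 2, both assigned to Dhrs3. The called share was 8.99%, against 5.26% of all tested peaks of the authors' deposited table. Lower calls made up 6.74% against 3.79%, and higher calls 2.25% against 1.47%. How the calls split by direction depended on centring. Setting the median of all peaks to 0 gave 5 lower and 5 higher calls at the 10 genes and 2056 lower and 1958 higher over all peaks. Setting it to 0 within each decile of GC content gave 3 lower and 5 higher at the 10 genes and 1380 lower and 2254 higher over all peaks, so the split of the whole table moved the same way. With the median of peaks in both groups' pooled peak lists set to 0, the 10 genes had 7 lower and 2 higher calls. Over all peaks that setting gave 3159 lower and 790 higher calls. Only 4 of the 8 calls had a mean normalized count of at least 10. Without Rarb and Cyp26a1, 3 of 52 peaks (5.77%) were called, 1 lower and 2 higher. No promoter peak of any of the 10 genes, meaning a peak with its midpoint within 1000 bases of a start site, was called. Within 3000 bases of a start of their own gene, 1 of 25 peaks (4.0%) was called, the Rxra peak, against 2.79% of all such peaks.

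Sequences are shown for the 4 called peaks that hold a match to an OTX or retinoic acid receptor sequence, and for the Cyp26a1 promoter peak, which was not called but holds the other receptor repeat. Each is the 200 bases around the midpoint of a peak, read from the GRCm38.p6 assembly (mm10) on the + strand. In the 3 lower peaks shown, capitals mark GGATTA, the core of the OTX recognition sequence, or its complement TAATCC where the match lies on the other strand. In the Dhrs3 peak and the Cyp26a1 promoter peak, capitals mark a DR5, a direct repeat of retinoic acid receptor half-sites spaced by 5 bases.
Cyp26a1 27.3 kb peak, chr19:37725330-37725529: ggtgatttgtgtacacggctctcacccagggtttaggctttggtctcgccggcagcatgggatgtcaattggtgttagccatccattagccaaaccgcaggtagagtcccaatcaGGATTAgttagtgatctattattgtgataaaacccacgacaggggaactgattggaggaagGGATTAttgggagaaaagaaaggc
Rarb peak with an OTX match, chr14:16716237-16716436: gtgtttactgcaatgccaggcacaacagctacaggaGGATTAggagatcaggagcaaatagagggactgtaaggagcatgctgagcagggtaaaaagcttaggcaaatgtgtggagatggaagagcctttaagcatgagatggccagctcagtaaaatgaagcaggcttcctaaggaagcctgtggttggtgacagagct
Rxra 2.0 kb peak, chr2:27679158-27679357: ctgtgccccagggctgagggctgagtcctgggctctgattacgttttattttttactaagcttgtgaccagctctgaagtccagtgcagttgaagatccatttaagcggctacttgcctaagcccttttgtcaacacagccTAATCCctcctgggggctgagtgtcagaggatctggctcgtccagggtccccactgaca
Dhrs3 5.22 kb peak, chr4:144898339-144898538: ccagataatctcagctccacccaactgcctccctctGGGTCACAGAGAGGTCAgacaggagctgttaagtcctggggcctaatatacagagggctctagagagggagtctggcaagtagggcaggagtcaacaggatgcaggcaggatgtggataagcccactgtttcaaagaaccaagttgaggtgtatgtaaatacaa
Cyp26a1 promoter peak, chr19:37697683-37697882: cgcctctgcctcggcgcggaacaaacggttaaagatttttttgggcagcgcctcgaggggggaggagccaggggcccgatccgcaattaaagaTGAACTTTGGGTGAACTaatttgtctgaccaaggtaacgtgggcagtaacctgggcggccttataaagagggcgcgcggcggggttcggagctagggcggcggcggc
The Cyp26a1 peak holds 2 GGATTA matches, 18 and 79 bases from its midpoint. The Rarb peak holds 1 match 61 bases from the midpoint, and the Rxra peak 1 match on the - strand, 44 bases from it. The DR5 of Dhrs3 reads GGGTCACAGAGAGGTCA and lies 55.5 bases from the midpoint. The DR5 of the Cyp26a1 promoter, on the - strand, reads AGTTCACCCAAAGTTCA and lies 1.5 bases from it. The other 4 called peaks held neither sequence in their windows.

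Most of the 89 peaks were weak. The authors' deposited table gives 1 mean normalized count per peak over the 6 libraries and 1 log2 fold change of dTAG13 over DMSO, but no value per library. Means of the 89 peaks ran from 1.91 to 61.6 with a median of 8.13, against 7.33 for all peaks, and 55 (61.8%) were under 10. With the SE of the authors' deposited table, a median log2 fold change of 2.14 (0.68 to 6.11) would have been needed for a call, so that smaller changes were mostly not detectable at this depth. The log2 fold changes had a median of -0.27 (quartiles -1.11 and 0.56), against -0.18 over all peaks of the authors' deposited table. Before adjustment, 24 peaks (27.0%) had a p under 0.05, 15 lower and 9 higher, against 19.7% of all peaks. Accessibility at markers of the labelled cell type was present, since all 10 endoderm genes examined, Foxa2 and Sox17 among them, had a promoter peak. Of the other lists, 3 of 3 neural, 3 of 4 epiblast, 3 of 6 mesoderm and 1 of 3 visceral or extraembryonic endoderm markers had one too. The loss of OTX2 protein cannot be read from these files.

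**Figure D1:**
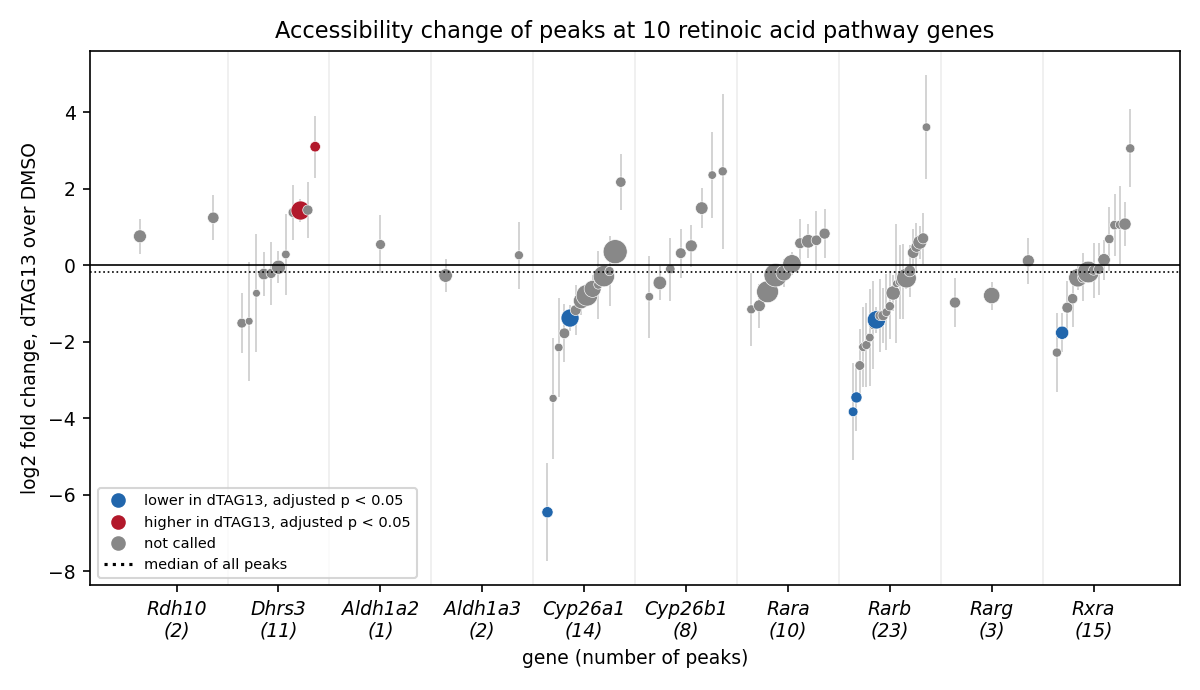
Log2 fold change of dTAG13 over DMSO (vertical axis) for each of the 89 peaks, grouped by gene along the horizontal axis with the number of peaks in brackets. Bars are 1 SE of the authors' deposited table and larger points have a higher mean; blue points are lower and red points higher at an adjusted p under 0.05, grey points are not called, and the dotted line is the median of all peaks; calls appear at Cyp26a1, Rarb and Rxra below 0 and at Dhrs3 above 0.

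Group levels used below are implied by the mean and the fold change, with equal weight for both groups, and carry no error of their own. Where the implied level of the lower group was under 3 normalized counts, the fold is given against a floor of 3 counts per library. This applied to 4 of the 8 called peaks. Such a fold leaves out the SE and is no lower bound on the change, since an interval can reach smaller changes. Intervals are 95% intervals from the SE of the authors' deposited table.

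Both higher calls were at Dhrs3, whose enzyme turns retinal back into retinol. Dhrs3 had 11 peaks, of which 2 (18.2%) were called, against 5.26% of all tested peaks. Its strongest peak (chr4:144898347-144898531), in intron 2 and 5.22 kb from a start site, rose from an implied 20.0 normalized counts in DMSO to 53.7 in dTAG13. The log2 fold change in the authors' deposited table was 1.43 (SE 0.30, interval 0.84 to 2.01, adjusted p 0.000512). This is the peak with the DR5 shown above, it was present in the pooled peak lists of both groups, and it was called under all 5 alternative settings (adjusted p 1.94e-05 to 0.00127). A weaker peak in the same intron (chr4:144906766-144906902) had 3.10 in the authors' deposited table (SE 0.81, interval 1.52 to 4.67, adjusted p 0.00815). It was listed in the dTAG13 peak list alone, and dTAG13 exceeded DMSO 4.58-fold against the floor.

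The other 9 Dhrs3 peaks were not called, and their fold changes lay on both sides of 0. The promoter peak with the higher mean (chr4:144892244-144892427, mean 17.9) had implied levels of 18.2 and 17.6 and a log2 fold change of -0.05 (SE 0.42, interval -0.88 to 0.77) in the authors' deposited table. A weak promoter peak 0.003 kb from a start (chr4:144893048-144893112) had 1.44 there (SE 0.73, p 0.0485, adjusted p 0.252). The called change at Dhrs3 was thus measured inside the gene, and none was detectable at its promoter. Of its 11 peaks, 4 (36.4%) were in the dTAG13 list alone, 4 (36.4%) in the DMSO list alone and 3 (27.3%) in both. Over all peaks these shares were 11.8%, 40.1% and 48.2%.

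The enzymes that make retinal and retinoic acid had few peaks and no call. Rdh10, which catalyses the retinol step, had 2 promoter peaks. The stronger (chr1:16105295-16105406) had a log2 change of 0.75 (SE 0.46, adjusted p 0.37) and the other (chr1:16105752-16105828) 1.24 (SE 0.59, interval 0.08 to 2.39, p 0.0357, adjusted p 0.214) in the authors' deposited table. Both values were positive and neither passed the adjusted threshold. Aldh1a2, the main retinoic acid synthesising enzyme of early embryos, had 1 peak, at its promoter (chr9:71215245-71215349), with implied levels of 5.0 and 7.38. Its log2 fold change in the authors' deposited table was 0.56 (SE 0.76, interval -0.93 to 2.05, adjusted p 0.731). Aldh1a3, a related enzyme, had a promoter peak (chr7:66427446-66427667) at -0.27 (SE 0.44, adjusted p 0.784) and an intron 6 peak (chr7:66409475-66409558) at 0.26 (SE 0.88, adjusted p 0.905) in the same table. The intervals of these 3 peaks all reach past a log2 change of 1 in at least 1 direction.

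Cyp26a1, which inactivates retinoic acid, had 14 peaks, reaching 161 kb downstream of its start. Only 0.717% of genes had as many or more. Of the 14, 2 (14.3%) were called, both lower, against 5.26% of all tested peaks. Accessibility fell at a peak 27.3 kb downstream (chr19:37725268-37725592), the one with the paired GGATTA matches. Implied levels there were 18.7 normalized counts in DMSO and 0.213 in dTAG13. The dTAG13 value lies on the lowest step of the implied levels (0.197 to 0.215), which 2664 peaks of the table share and above which the next value is 0.406. The log2 fold change of -6.46 (SE 1.28, interval -8.96 to -3.96, adjusted p 0.000188) in the authors' deposited table therefore has no firm size. Against the floor, DMSO exceeded dTAG13 6.23-fold. The peak was in the DMSO list alone and was called under all 4 alternatives that keep it (adjusted p 0.00012 to 0.000928).

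The other call was a stronger peak 161 kb downstream (chr19:37858417-37858773), which was present in both lists and fell 2.61-fold from an implied 47.0 normalized counts in DMSO. Its log2 fold change in the authors' deposited table was -1.38 (SE 0.34, interval -2.05 to -0.71, adjusted p 0.00519). When the median within each decile of GC content was set to 0, it became -0.93 and was no longer called (adjusted p 0.0841). Gene assignment is open at both peaks, because their nearest annotated starts were those of AC110212.2, 2.01 kb away, and AC109149.1, 11.7 kb away. The same holds for most Cyp26a1 peaks. Only the promoter peak and a peak 6.01 kb downstream had a Cyp26a1 start as the nearest.

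Of the 14 Cyp26a1 peaks, 12 had a negative log2 fold change, against 40999 of all 70494 peaks, and the median was -0.86. All but 1 of the 14 lay outside promoters, where 30367 of 48066 values over all peaks were negative, with a median of -0.38. Their median GC content was 50.9%, against 54.8% over all peaks, and the lowest median of a GC decile was -0.91. Whether Cyp26a1 leans further than peaks of like position and GC content was not tested. At the promoter (chr19:37697608-37697958), implied levels were 34.1 in DMSO and 22.2 in dTAG13. The log2 fold change in the authors' deposited table was -0.62 (SE 0.37, interval -1.34 to 0.10, adjusted p 0.349), so the promoter peak with its DR5 was not called. The strongest of all 89 peaks (chr19:37719248-37719675, mean 61.6), 21.4 kb downstream, had implied levels of 54.1 and 69.1 and a log2 fold change of 0.35 (SE 0.23, interval -0.09 to 0.80, adjusted p 0.397) in the authors' deposited table. Like the promoter, it was not called.

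A pair of further Cyp26a1 peaks missed the threshold narrowly, with opposite signs. At 117 kb (chr19:37814620-37814736) the authors' deposited table gives 2.17 (SE 0.73, adjusted p 0.0521), and this peak was called when the median of all peaks was set to 0 (adjusted p 0.031) or within GC deciles (adjusted p 0.0426). At 42.0 kb (chr19:37739892-37740375), a strong peak with a GGATTA match, it gives -0.79 (SE 0.27, adjusted p 0.0591), with implied levels of 61.5 and 35.6. Only 1 Cyp26a1 peak was in the dTAG13 list alone, against 7 in the DMSO list alone and 6 in both.

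Cyp26b1, the related enzyme, had 8 peaks and no call, and its median log2 fold change was 0.41. Its peak with the smallest p, 7.81 kb upstream (chr6:84601603-84601835), had implied levels of 6.92 in DMSO and 19.4 in dTAG13. The authors' deposited table gives a log2 fold change of 1.49 (SE 0.52, interval 0.47 to 2.51, adjusted p 0.0649). It was called with the median of all peaks set to 0 (1.67, adjusted p 0.0326) and within GC deciles (2.10, adjusted p 0.00465). Its strongest peak, in intron 2 (chr6:84583456-84583681, mean 15.9), had -0.46 (SE 0.45), and the weak promoter peak (chr6:84589014-84589083, mean 4.67) 2.45 (SE 2.03, interval -1.53 to 6.43) in that table. Whether the response of Cyp26a1 and Cyp26b1 differs was not tested, since no values per library were at hand.

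Among the receptors, Rarb had 3 of the 4 calls and 23 of the 51 peaks. Its called share was 13.0%, against 7.84% of the receptor peaks, 5.26% of all tested peaks and 6.68% of all peaks outside promoters. With 23 peaks Rarb belonged to the 0.0672% of genes with that many or more. Of the 23, 18 had a negative log2 fold change, with a median of -1.07. All but 1 of its peaks lay outside promoters. Over all peaks outside promoters, 30367 of 48066 values were negative, with a median of -0.38. Rarb peaks also had a lower median GC content (48.9% against 54.8% over all peaks), and the lowest median of a GC decile was -0.91. Whether Rarb leans further than peaks of like position and GC content was not tested. All 3 calls were lower in dTAG13. They lie between the groups of annotated Rarb starts, where the authors' annotation says distal intergenic but 2 of 7 Rarb transcripts of GENCODE extend across them. The strongest (chr14:16742369-16742755), 76.4 kb from a start, was present in both lists and fell from an implied 49.3 to 18.3 normalized counts. Its log2 fold change in the authors' deposited table was -1.43 (SE 0.34, interval -2.09 to -0.77, adjusted p 0.00298). Its GC content of 41.1% is low, and setting the median within GC deciles to 0 left -0.52 and no call (adjusted p 0.403).

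The other Rarb calls were weak peaks of the DMSO list alone, each about as far from the nearest Rarb start (103 kb). The peak with the GGATTA match (chr14:16716250-16716423) had implied levels of 17.0 in DMSO and 1.55 in dTAG13, 5.67-fold higher in DMSO against the floor. The authors' deposited table gives it -3.46 (SE 0.88, interval -5.18 to -1.73, adjusted p 0.00655). It was called under all 4 alternatives that keep it, with an adjusted p of at most 0.0214. The weakest (chr14:16678515-16678725) was 3.6-fold higher in DMSO against the floor, with -3.83 (SE 1.26, interval -6.31 to -1.35, adjusted p 0.0482) in that table. This call sits just inside the threshold, and was lost with the median of all peaks set to 0 (adjusted p 0.0589) and within GC deciles (adjusted p 0.156). The nearest value outside the threshold among the 89 peaks was an adjusted p of 0.0517, at Rxra.

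At the Rarb promoter (chr14:16575590-16575712, mean 8.7) the log2 fold change was 0.48 (SE 0.63, interval -0.75 to 1.71, adjusted p 0.722) in the authors' deposited table. A start of Gm48162, 0.05 kb away, was nearer to this peak than that of Rarb, 0.108 kb away. The strongest Rarb peak (chr14:16572828-16573179, mean 39.5), 2.04 kb into the gene, had -0.34 (SE 0.29, interval -0.90 to 0.22). The uncalled peak with the smallest p, in intron 2 (chr14:16546716-16546915), had -2.62 (SE 0.96, adjusted p 0.0829) in that table. The most positive of the 5 positive values was at a peak 201 kb upstream (chr14:17020162-17020248), with 3.61 (SE 1.36 and adjusted p 0.0948 in the authors' deposited table) and a mean of only 3.46. The nearest annotated start to that peak was that of Gm18078, 66.6 kb away. Of the 23 peaks, 14 (60.9%) were in the DMSO list alone, 2 (8.7%) in the dTAG13 list alone and 7 (30.4%) in both. Over all peaks these shares were 40.1%, 11.8% and 48.2%.

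**Figure D2:**
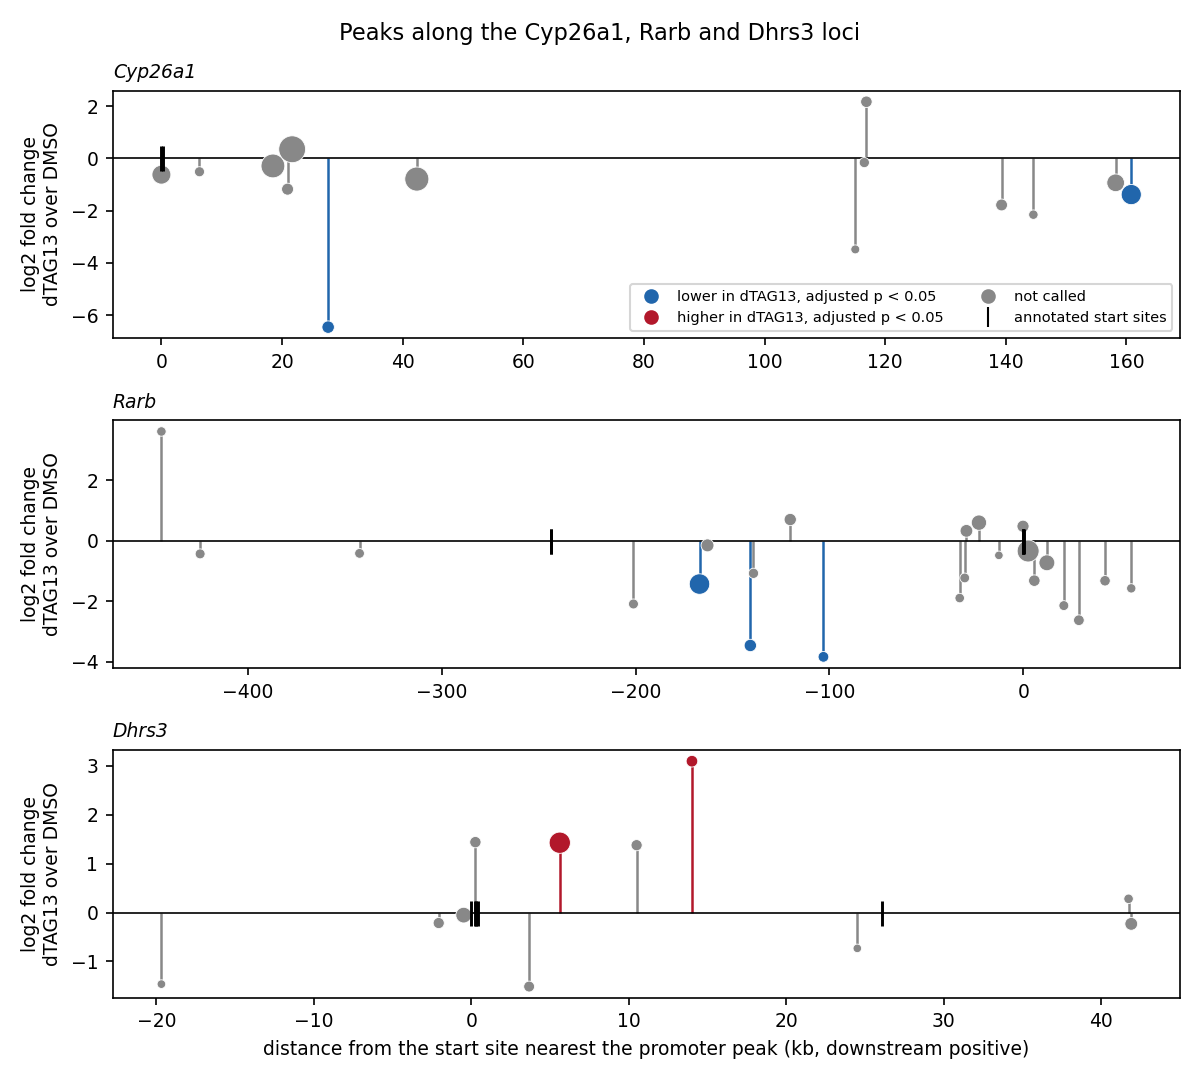
Log2 fold change of dTAG13 over DMSO (vertical axis) against distance from the start site nearest the promoter peak in kb, downstream positive (horizontal axis), for the peaks of Cyp26a1, Rarb and Dhrs3. Stems run from 0 to each value, larger points have a higher mean normalized count, blue and red points are lower and higher calls, and ticks are annotated starts; the promoter peaks near 0 kb are grey, and the called peaks lie away from them.

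Rxra, the common partner of the RAR receptors, had 15 peaks and 1 call (6.67%, against 5.26% of all tested peaks). The peak 2.0 kb downstream of a start (chr2:27679164-27679352), which holds a GGATTA match, fell from an implied 23.5 to 6.9 normalized counts. Its log2 fold change in the authors' deposited table was -1.77 (SE 0.51, interval -2.76 to -0.77, adjusted p 0.019), and it was called under all 5 alternatives (adjusted p 0.0115 to 0.0495). A peak in intron 1 (chr2:27734556-27734646), listed in dTAG13 alone, went the other way and just missed the threshold, with 3.05 (SE 1.02, adjusted p 0.0517) in that table. It was called with the median of all peaks set to 0 (adjusted p 0.0355) and within GC deciles (adjusted p 0.0485). The strongest Rxra peak, 35.5 kb upstream (chr2:27640765-27641149, mean 48.8), had -0.18 (SE 0.27, interval -0.70 to 0.35), and the promoter peak with the highest mean (chr2:27740336-27740535) 0.14 (SE 0.53 and adjusted p 0.916 in the authors' deposited table).

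Rara and Rarg had no call. Rara had 10 peaks with 5 values on each side of 0 and a median of -0.09. Its strongest (chr11:98925834-98926356, mean 58.2) had a log2 fold change of -0.26 (SE 0.23, interval -0.71 to 0.18), and its promoter peak (chr11:98937503-98937780, mean 33.7) 0.03 (SE 0.30, interval -0.55 to 0.62) in the authors' deposited table. These are among the better measured of the 89 peaks, and their intervals leave out a change of 1 in log2. The uncalled Rara peak with the smallest p (chr11:98962527-98962900) had implied levels of 62.0 and 38.3 and -0.69 (SE 0.27, adjusted p 0.0991) in that table. At Rarg, with 3 peaks, the promoter peak (chr15:102246970-102247262) was its strongest and had -0.79 (SE 0.37, interval -1.51 to -0.08, p 0.03, adjusted p 0.193) in the authors' deposited table.

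**Figure D3:**
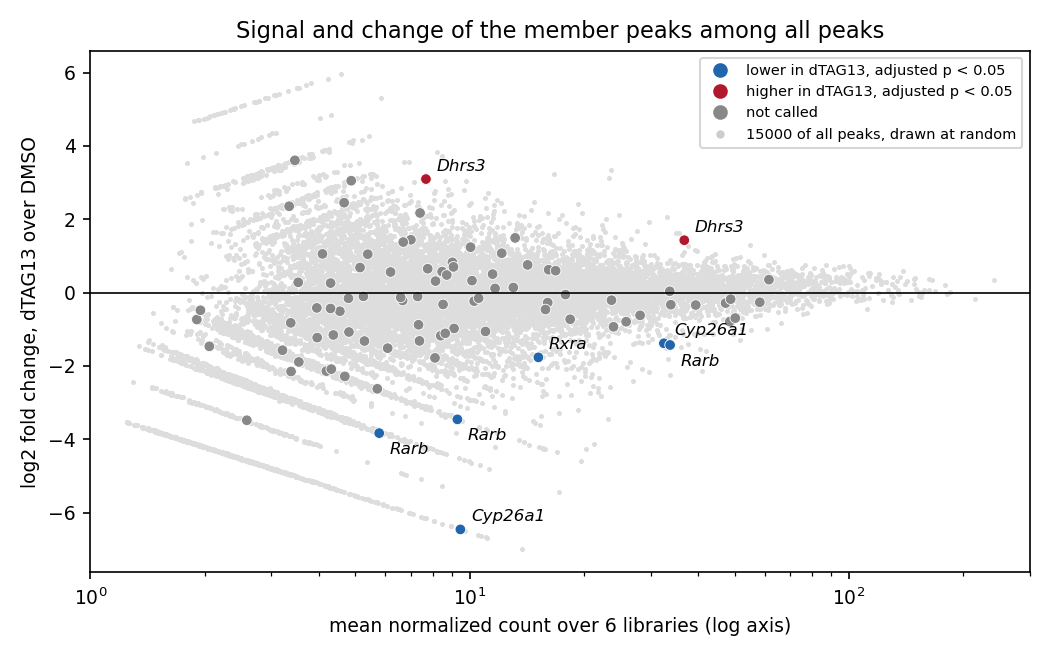
Log2 fold change of dTAG13 over DMSO (vertical axis) against the mean normalized count over 6 libraries (horizontal log axis) for the 89 peaks, over 15000 of the 70494 peaks drawn at random in light grey. Blue and red points are lower and higher calls; the calls at means above 30 have log2 changes of about 1.4 in size, and the larger changes are at weaker peaks.

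Of the 89 peaks, 14 (15.7%) were promoter peaks, against 31.8% of all peaks, and all 10 genes had at least 1. None of the 14 was called, where 2.28% of all promoter peaks in the authors' deposited table were, so a count of 0 is near what that share gives. Of the 14, 3 had an unadjusted p under 0.05, 1 lower and 2 higher. Of the 75 peaks farther away, 8 (10.7%) were called, against 6.68% of all such peaks. The 20 peaks over 50 kb from a start of their own gene included 4 of the 6 lower calls and no higher call, and those 4 belong to Rarb and Cyp26a1. Of all peaks that far from a start of their assigned gene, 8.4% were called, 6.23% lower and 2.18% higher.

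The pooled peak lists, 1 per group and without replicates, come from the same libraries as the fold changes. Of the 89 peaks, 37 (41.6%) were in both lists, 36 (40.4%) in the DMSO list alone and 16 in the dTAG13 list alone. Over all peaks the shares were 48.2%, 40.1% and 11.8%. Rarb had the highest share in the DMSO list alone (60.9%) among genes with over 3 peaks, and Dhrs3 had 4 of 11 in the dTAG13 list alone. All but 1 of the Rarb peaks lay outside promoters, where 48.7% of all peaks were in the DMSO list alone.

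**Figure D4:**
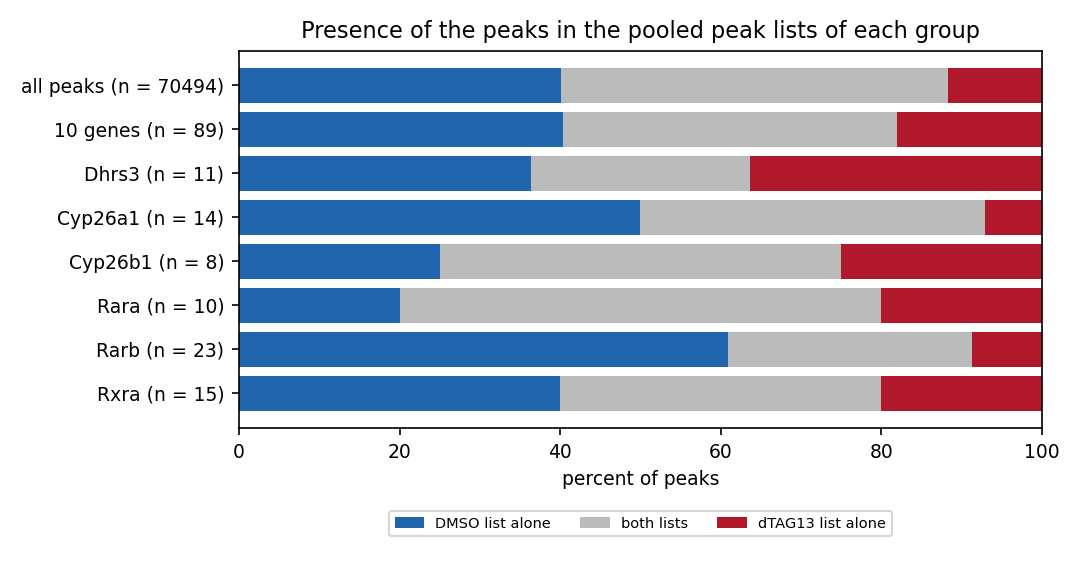
Percent of peaks (horizontal axis) found in both pooled peak lists, in the DMSO list alone or in the dTAG13 list alone, for all peaks, the 89 peaks together and single genes, with the number of peaks in brackets. The DMSO list alone holds 60.9% of the Rarb peaks and 40.4% of the 89 peaks.

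Motif letters were counted within 100 bases of each midpoint on both strands. GGATTA occurred in 11 of the 89 peaks (12.4%) and in 8.81% of all peaks. It was in 3 of the 6 lower calls and in neither higher call, where 34.1% of all lower and 1.28% of all higher calls of the table held it. The reversed letters ATTAGG, which can overlap a GGATTA match, occurred in 10.1% of the 89 peaks and 7.06% of all. These letters were in 2 of the 6 lower calls and 1 of the 2 higher calls. Over all peaks, 16.0% of lower and 5.61% of higher calls held them. The GATA letters AGATAA were in 23.6% against 15.6%, and the FOX letters TGTTTAC in 6.74% against 5.33%. Other letters were less frequent in the 89 peaks, with SOX letters in 14.6% against 16.4% and TEAD letters in 8.99% against 11.5%. Of the single receptor half-sites, AGTTCA was in 11.2% against 7.98%, but GGGTCA was in 7.87% against 10.2%. AGGTCA was also in 7.87%, below its share of all peaks (8483 of 70494). The 89 peaks held a smaller share of promoter peaks than all peaks (15.7% against 31.8%). Median GC content over all promoter peaks was 64.3%, against 52.1% for all peaks farther away. Whether the motif shares differ from those of peaks of like position and GC content was not tested.

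Retinoic acid receptor repeats were rare. A DR5 built from the half-site AGGTCA, its variant AGTTCA or its other variant GGGTCA was found in 40 of all peaks (0.0567%), and 2 of those 40 were among the 89 peaks (2.25%), at the Cyp26a1 promoter and in Dhrs3. Adding GGTTCA as a half-site gave 55 peaks (0.078%) and the same 2 among the 89. Of the 40 peaks, 14 had a positive log2 fold change and 2 were called, 1 higher, which is the Dhrs3 peak, and 1 lower. Repeats spaced by 1 or 2 bases were found in none of the 89 windows. A match is a description of the letters and does not show binding.

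The wider retinoid network was described from 3 lists of 48 genes, of which 45 had peaks, 171 in all. In the authors' deposited table, 5 of 170 tested peaks (2.94%) were called, 4 lower and 1 higher, against 5.26% of all peaks, and the median log2 fold change was -0.24. Among 18 of 19 supply, transport and degradation genes, the call was at Cyp26c1, another CYP26 enzyme and the neighbour of Cyp26a1. Its peak (chr19:37671622-37671824), 13.9 kb upstream, was 4.16-fold higher in DMSO against the floor. The authors' deposited table gives it -3.97 (SE 1.18, interval -6.28 to -1.66, adjusted p 0.0241), and the call was lost within GC deciles (adjusted p 0.0669). Among 14 receptor and cofactor genes, the call was at Tbl1xr1, a subunit of corepressor complexes (chr3:22156476-22156722), with -3.26 (SE 0.92 and adjusted p 0.0158 in the authors' deposited table).

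Genes known to respond to retinoic acid gave 3 calls in 50 peaks (6.0%), 2 lower and 1 higher, over 13 of 15 genes. Meis2, a homeodomain transcription factor, had the higher call (chr2:116010611-116010775), with a log2 change of 2.82 (SE 0.88 and adjusted p 0.0349 in the authors' deposited table).

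The authors' deposited table also marks genes in columns headed as differentially expressed, down or up, whose origin is not given in the sources used here. Of the 10 genes, Rarb was marked down and Cyp26a1 and Rdh10 up, where 370 (1.38%) and 429 (1.6%) of all genes with a peak carried these marks. Which groups the marks compare is not given either, so their direction cannot be set against the fold changes here. Rarb, marked down, had 3 called peaks, all lower in dTAG13. Both called peaks of Cyp26a1, marked up, were lower in dTAG13, and Rdh10 had positive fold changes without a call. Of the 45 wider genes, 2 were marked down, Nr2f2 among them, and 3 up, namely Fabp5, Nrip1 and Zfp423.

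The gene column decides which peaks count. By the nearest annotated start, 73 of the 89 peaks belonged to the 10 genes, and 6 of the 8 calls were kept, 4 lower and 2 higher. Both Cyp26a1 calls were lost in this way. Taking every peak within 100 kb of a start gave 148 peaks with 8 calls (5.41%), 5 lower and 3 higher, close to the 5.26% of all peaks. Of these 8 calls, 5 were shared with the gene column.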

How the data were processed

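ATAC-seq libraries of 3 DMSO and 3 dTAG13 samples were grouped by their titles. Per the submitters' processing notes, fastp, Bowtie2, MACS2, featureCounts, HOMER 4.11 and ChIPseeker were used on build mm10; their settings, the handling of duplicates and any shift of read ends are not given in the sources used here. The deposited table of all peaks gives, per the file headers, a mean signal (read counts scaled between libraries), a log2 fold change and its SE, a score, a p-value and an adjusted p-value per peak. The deposited score equals fold change over SE (largest difference 8.72e-07), and the adjusted p-values are Benjamini-Hochberg values over 69128 peaks (largest difference 7.87e-06). Depth per library is not given, and no value per library was used here. The planned count test could therefore not be run, and peaks were called from the deposited adjusted p-values alone. The authors' own lists of enriched peaks (2599 for DMSO and 882 for dTAG13) are narrower. They match the same threshold joined to a change of 1 log2 unit or more in either direction. With that size rule added, all 8 calls at the 10 genes were kept. Peak lists were pooled per group by the authors, per the labels.

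Group levels, intervals, promoter distances (start sites of GENCODE mouse release 21), list overlaps of at least 1 base and motif matches were computed with Python 3.11.15, numpy 2.4.6, pandas 2.3.3, scipy 1.17.1 and pysam 0.24.0. On simulated data, only the adjustment of p-values, the list overlaps and the finding of planted DR5 repeats were checked. The text names every called peak of the 10 genes, each gene's strongest peak, its promoter peak with the highest mean and its uncalled peak with the smallest p, and for the wider lists called peaks, of which some, like the marks of some genes, are not reported here; the peaks at 42.0 kb of Cyp26a1, at 201 kb of Rarb and in intron 6 of Aldh1a3 and the weaker promoter peaks of Dhrs3 and Rdh10 were named after their values were seen. The 10 genes and the lists were chosen with earlier results of these data known. Alternatives changed the filter on weak peaks, the zero point of fold changes, the threshold, the gene assignment, the overlap, the promoter distance and the motif window.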

Additional observations from a re-analysis of the deposited data

How the results depend on the processing

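Over the alternatives, 32 values of counts and shares stayed within 1.5 times or, for shares, within their interval, and 18 moved. Keeping only peaks with a mean of at least 10 left 4 calls at the 10 genes, 3 lower and 1 higher, and 1 call in the wider lists, 1 lower and 0 higher. An adjusted p under 0.1 gave 15 calls, 6 of them higher. Setting the median of all peaks (-0.18) to 0 gave 5 higher calls at the 10 genes and 3 in the wider lists. Medians within GC deciles ran from -0.91 to 0.04, and setting them to 0 gave 3 lower and 5 higher calls at the 10 genes, 2 lower and 2 higher in the wider lists, and 1380 lower and 2254 higher over all peaks. The majority of calls turned from lower to higher at the 10 genes and over the whole table. The median of peaks in both lists (0.09) set to 0 gave 7 lower and 2 higher calls at the 10 genes. In the wider lists it gave 8 calls, 7 of them lower. Within 3000 bases of a start there were 25 promoter peaks, of which 1, at Rxra, was called, and 250 bases on each side raised the share with GGATTA to 21.3%; both windows are wider by construction. For single named peaks, 89 values kept their call or lack of one, 6 gained a call and 7 lost it.

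No paired analysis was possible because no value per library was at hand. For the same reason leaving out libraries, edgeR and DESeq2 were not run. The half-site GGTTCA was added after seeing the data. Depth limits the fold of the 24 peaks with a group level under 3 normalized counts.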

Other observations

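Within 100 kb of a start of the 10 genes, 3 called peaks carry another gene's name in the authors' deposited table. One assigned to Vps13d, on the Dhrs3 side (chr4:144989133-144989344), had a log2 change of 3.56 (SE 0.99, adjusted p 0.0145) in that table. One assigned to Gm38249, near Rdh10 (chr1:16178731-16178874), had -3.02 (SE 0.95, adjusted p 0.0357). The remaining one is the Cyp26c1 peak given above.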
